A study of Arabidopsis thaliana with 45 samples.

Results

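Roots of Arabidopsis thaliana seedlings sealed in Kennedy Fixation Tubes were compared at Q4 (landing) and at Q3 (coast end), the last 2 points of a mock suborbital flight profile. The comparison rests on 6 of the 45 libraries of the series, 3 root libraries from the Q4 tube (Q4R) and 3 from the Q3 tube (Q3R), taken by their labels and not by any measured value. A Kennedy Fixation Tube (KFT) is a sealed syringe-like vessel that holds living plants above a reservoir of RNAlater, a salt solution that preserves RNA, and releases it when the plunger is pressed. Both groups were wild-type Columbia-0 (Col-0) seedlings, 7 days old, grown under a 24 h light cycle and kept 8 h in the dark, and both tubes stood upright and unrotated. By the paper's account the 8 h of darkness came on day 3, and 4 further days of light followed it. Q4R plants were fixed after 4 h 28 min in the KFT, against 4 h 18 min for Q3R plants, a gap of 10 min. These hours are those of the sample labels, and the text of the study counts the time since sealing from a different start, with the same gap between both points. Each library pooled 2 plants, and all 3 libraries of a group came out of a single tube. The time of fixation and the individual tube therefore cannot be told apart, and every p-value below measures the spread between libraries of 1 tube.

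Root cells depend on sugar sent down from the shoot, and in darkness that supply falls. Plants short of carbon switch on dark-inducible genes, autophagy and the breakdown of branched-chain amino acids. Impaired mitochondrial respiration is reported to the plant nucleus, which then makes alternative oxidase and a set of other proteins, and mitochondria keep a small genome of their own that encodes core subunits of the respiratory chain and ATP synthase.

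Depth ranged over 52907925 to 74811493 counts in Q4R libraries and over 53884458 to 90007788 counts in Q3R libraries. All root levels below are CPM (counts divided by library size), scaled over the 15 root libraries of the time course and the clinostat group, and are not corrected for gene length, so they are compared between libraries and not between genes. Root identity was checked with marker genes. CASP1, which builds the Casparian strip of the endodermis, had 213, 222 and 196 CPM in Q4R libraries and 135, 149 and 122 CPM in Q3R libraries, and was present in all 6. It was also among the genes that rose (log2 fold change 0.64, SE 0.12, edgeR, Benjamini-Hochberg adjusted p = 0.0189), as was FAR4, a fatty acid reductase of the suberin pathway (0.76, adjusted p = 0.0439). These were 2 of 17 tested markers of endodermis, stele and vascular tissue, where 1.76% of all genes tested rose at an adjusted p of at most 0.05, their median was 0.17, and both calls were lost without Q3R replicate 1 or Q3R replicate 3. CASP5, a relative of CASP1 outside that list and picked after its values were seen, rose by 1.53. Green tissue markers summed to 521 to 885 CPM in Q4R libraries and 470 to 811 CPM in Q3R libraries, so some green transcripts were present in both groups, with overlapping ranges. Markers of root hair and epidermis summed to 580 to 809 CPM in Q4R libraries against 469 to 671 CPM in Q3R libraries, and root tip markers to 42.0 to 66.2 CPM against 45.5 to 53.0 CPM. The sum over endodermis, stele and vascular markers was the one that did not overlap, at 961, 1017 and 968 CPM in Q4R libraries and 805, 811 and 811 CPM in Q3R libraries (two-sided exact permutation test, p = 0.1, the smallest that 3 against 3 can give). In such whole-root libraries, fewer cells of a type and less RNA per cell cannot be told apart, and the part of cell composition in the results below was not tested.

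Of 20867 genes tested with edgeR's quasi-likelihood test, 220 (1.05%) were differentially expressed genes (DEGs), called where the Benjamini-Hochberg adjusted p was no more than 0.05 and the log2 ratio was 1 or more in size. DEGs higher at Q4R numbered 140 (0.671%) and DEGs lower at Q4R 80 (0.383%). On the adjusted p alone, 368 genes rose (1.76%) and 213 fell (1.02%), and the words rose and fell are used below for these. Both shares are the background for each list count below. The median log2 fold change over all genes tested was -0.005. For 218 of the 220 DEGs the 3 Q4R values did not overlap the 3 Q3R values, against 5111 of all genes tested (24.5%). The DEGs were called from these same values, so their separation largely follows from the call and is no further support. The mitochondrial genome gave 17 DEGs, all higher at Q4R, the plastid genome 2, both lower, and the nuclear genome 201, of which 78 were lower. The number of DEGs leaned on single libraries: it was 95 without Q3R replicate 3, 117 without Q3R replicate 1, 121 without Q4R replicate 1 and 354 without Q4R replicate 3. DESeq2 called 408, with 216 higher and 192 lower, and no DEG changed direction under any alternative.

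**Figure D1:**
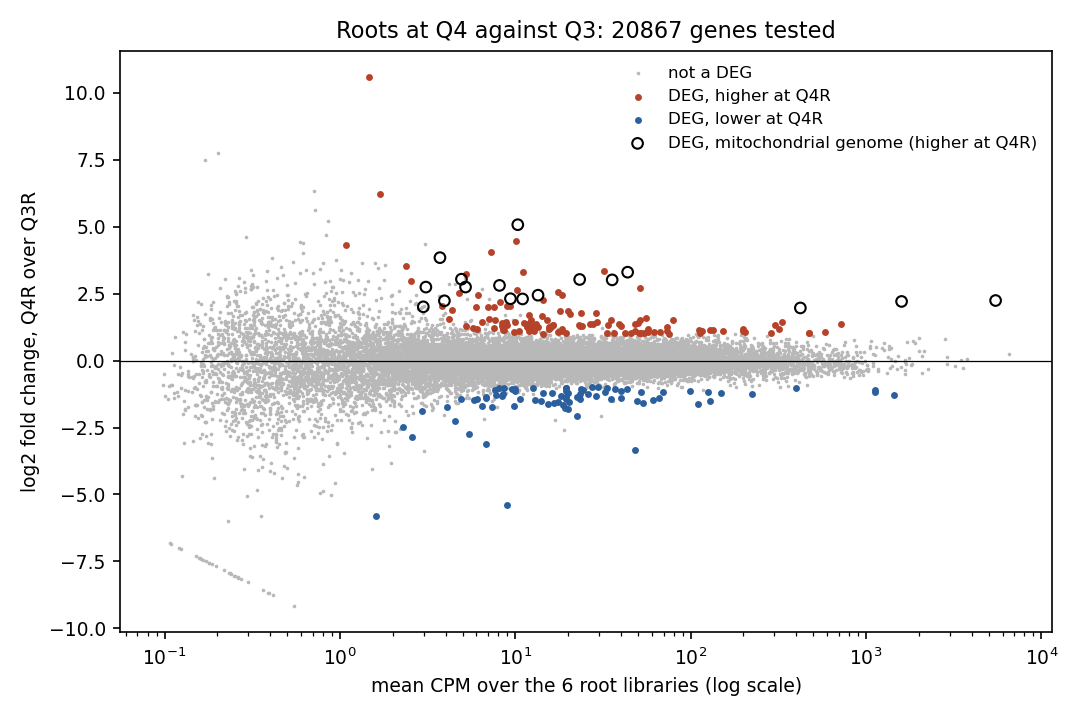
Log2 fold change of Q4R over Q3R (vertical axis) against the mean level over the 6 libraries in CPM (horizontal, log scale) for the 20867 genes tested. Red points and rings together are the 140 DEGs higher at Q4R, and blue points are the 80 lower. Rings mark the 17 DEGs of the mitochondrial genome, all of which lie above 0.

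Transcripts of the mitochondrial genome had the highest median change of the 34 gene lists examined. Together they made up 1.79%, 0.972% and 0.974% of all counts in Q4R libraries, against 0.236%, 0.299% and 0.272% in Q3R libraries. On the CPM scale their sum was 18540, 9614 and 10030 in Q4R libraries and 2371, 3092 and 2745 in Q3R libraries, a difference of 2.16 in log2 (two-sided exact permutation test, p = 0.1, the smallest possible). Every Q4R library lay above every Q3R library, and Q4R replicate 1 was the highest. Ribosomal RNA of the mitochondrion took 90.5% to 91.9% of these counts in the 6 libraries, and without it the sum still differed by 2.09 in log2, with 1535, 836 and 847 CPM in Q4R libraries and 226, 280 and 224 CPM in Q3R libraries. The libraries were made by poly(A) selection, so the amount of a mitochondrial transcript and the share of its copies that carry a tail cannot be told apart.

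Among the 52 mitochondrial genes tested, 17 rose and none fell, with a median log2 fold change of 2.14 and 49 values above 0. COX1, a catalytic subunit of cytochrome c oxidase, had 90.08, 53.2 and 47.0 CPM in Q4R libraries, against 10.52, 7.55 and 5.63 CPM in Q3R libraries. The groups did not overlap and the log2 fold change was 3.02 (SE 0.28, edgeR, adjusted p = 0.000289). COX2, its partner subunit, rose by 3.31 in log2 (SE 0.34, adjusted p = 0.000676). ATP9, the ring subunit of ATP synthase, had 28.6, 17.0 and 14.6 CPM in Q4R libraries and 0.625, 0.425 and 0.767 CPM in Q3R libraries (log2 fold change 5.08, SE 0.35, adjusted p = 7.78e-05). ATP synthase subunit alpha (ATMG01190) rose by 3.85, the small-subunit ribosomal RNA RRN18 by 2.21 and the open reading frame ORF240A by 3.03 in log2. A filter of at least 10 CPM in 3 libraries, which tested fewer of these genes, left 11 that rose.

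The nuclear genome of Arabidopsis carries a large copy of mitochondrial DNA on chromosome 2, and reads from near-identical copies cannot be assigned with certainty. By the paper's account only uniquely mapping reads were counted, so reads matching both copies equally would be left out. Levels of mitochondrial genes with such a copy would then also rest on the reads that differ from it. Of 40 tested nuclear genes with at least 50% of their sequence in the mitochondrial genome, 37 had positive values and the median was 1.51. The 4 that were DEGs were AT2G07671, an ATP synthase subunit C family gene (log2 fold change 4.46), AT2G07777, an ATP synthase 9 gene (4.31), AT2G07695, like cytochrome c oxidase subunit 2 (3.55), and AT2G07698, like ATP synthase subunit alpha (3.34). At least 99.86% of each lies in the mitochondrial genome, so the source of their reads is uncertain. AT2G07777 did not pass when any of the 6 libraries was left out. Setting both organelles and this copy aside, 197 DEGs remained, 119 higher and 78 lower at Q4R.

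**Figure D2:**
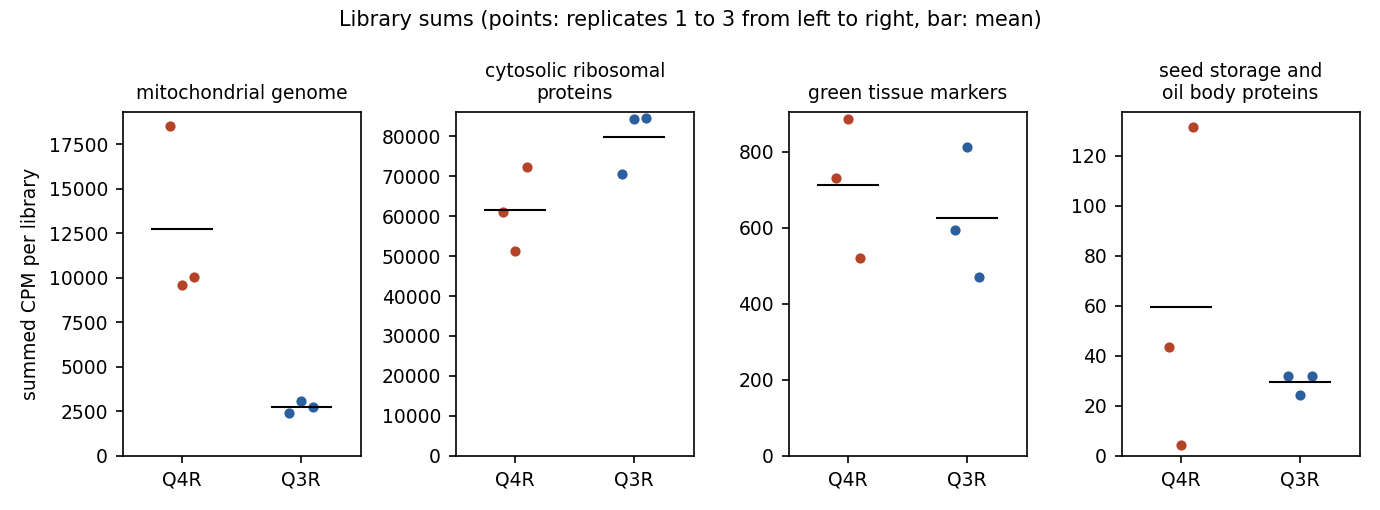
Summed CPM (vertical axis, from 0) of 4 gene groups in each of the 3 Q4R libraries (red) and the 3 Q3R libraries (blue), with a bar at the mean. The mitochondrial sums of Q4R (9614 to 18540) all lie above those of Q3R (2371 to 3092), whereas the other 3 sums overlap.

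Nuclear genes known to respond to impaired mitochondria also rose. Of 18 tested, 9 rose and none fell, with a median log2 fold change of 0.82 and 17 values above 0. AOX1A, the alternative oxidase that lets electrons bypass part of the respiratory chain, had 107, 96.6 and 96.0 CPM in Q4R libraries and 59.5, 49.7 and 40.3 CPM in Q3R libraries. The 3 Q4R values were close together and above all Q3R values (log2 fold change 1.01, SE 0.15, edgeR, adjusted p = 0.00535). AT2G21640, annotated as a marker of the oxidative stress response, had 24.4, 40.4 and 24.8 CPM in Q4R libraries against 4.29, 6.27 and 4.75 CPM in Q3R libraries (log2 fold change 2.55, SE 0.25, adjusted p = 0.000359). AT5G09570, a Cox19-like CHCH family gene, showed the largest rise of this group, with 10.7, 15.8 and 14.5 CPM in Q4R libraries and 1.28, 0.402 and 0.823 CPM in Q3R libraries (log2 fold change 4.05, SE 0.40, adjusted p = 0.000494). Its lowest Q4R value was several times its highest Q3R value. AT2G41730, SOT12, a sulfotransferase, and UGT74E2, which attaches glucose to the auxin indole-3-butyric acid, rose by 2.26, 1.38 and 1.24 in log2. Only 5 of the 9 genes passed without Q3R replicate 1 and 5 without Q3R replicate 3, and 6 passed without Q4R replicate 1.

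Genes switched on by darkness and lack of sugar formed the other group that rose together, with 10 of 13 tested genes past the threshold, none lower, and a median log2 fold change of 1.09. All 13 values were above 0. DIN2, a dark-inducible beta-glucosidase, had 100, 69.7 and 96.5 CPM in Q4R libraries against 10.7, 13.7 and 16.5 CPM in Q3R libraries. That is a log2 fold change of 2.72 (SE 0.20, edgeR, adjusted p = 7.78e-05), with no overlap. AT4G35770, known as SEN1 or DIN1 and a marker of dark-induced senescence, had 22.6, 39.8 and 30.8 CPM in Q4R libraries and 2.56, 8.17 and 6.21 CPM in Q3R libraries (log2 fold change 2.46, SE 0.35, adjusted p = 0.00427). DRMH1, a dormancy-associated gene, was abundant, with 1110, 1192 and 823 CPM in Q4R libraries and 320, 503 and 384 CPM in Q3R libraries (log2 fold change 1.38, SE 0.18, adjusted p = 0.00291). ATG8E, whose protein coats the membranes of autophagosomes, reached 154 ± 18.8 CPM in Q4R libraries and 69.6 ± 0.789 CPM in Q3R libraries (SD, n = 3 each), a log2 fold change of 1.16 (edgeR, adjusted p = 0.00106). DYL1, a paralog of DRMH1, rose by 1.09 and DIN10, of the raffinose synthase family, by 0.81. Of the 10 genes, 5 passed without Q3R replicate 1 and 5 without Q3R replicate 3.

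**Figure D3:**
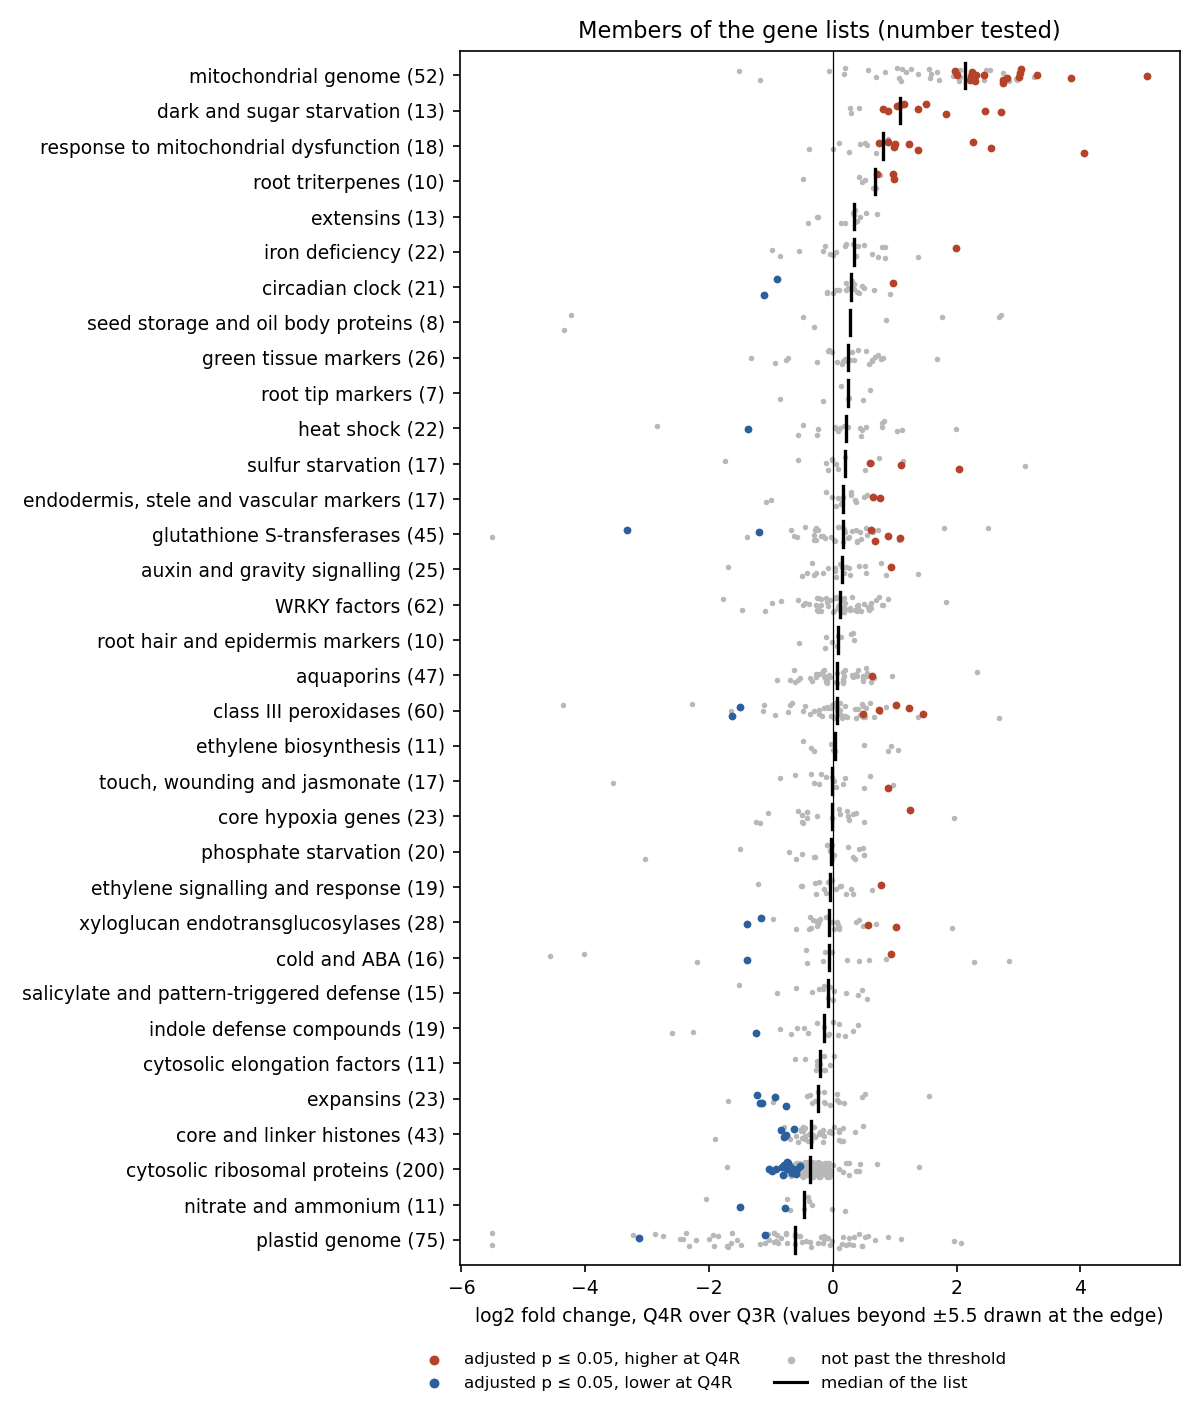
Log2 fold change of Q4R over Q3R (horizontal axis) for every tested member of the 34 gene lists, with the number tested in brackets. Red points rose and blue points fell at adjusted p of at most 0.05, grey points did not pass, and black bars are list medians, which run from 2.14 for the mitochondrial genome to -0.62 for the plastid genome.

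Several smaller groups held genes that rose. Of 10 tested genes of root triterpene synthesis, 3 rose, and 1 without Q3R replicate 3, and the list median was 0.68. All 3 belong to the pathway of thalianol, one of these triterpenes. CYP708A2, which hydroxylates thalianol, had 125, 142 and 162 CPM in Q4R libraries and 64.6, 83.3 and 69.6 CPM in Q3R libraries (log2 fold change 0.99, SE 0.14, edgeR, adjusted p = 0.00427). The groups were apart, and THAS1, the thalianol synthase, and CYP705A5 rose by 0.97 and 0.72. Among 17 sulfur starvation genes, 3 rose: ATSDI1 by 2.05, LSU1 by 1.099 and SHM7 by 0.60. BHLH101, a transcription factor of the iron deficiency response, rose by 1.99 with 10.8, 14.3 and 8.56 CPM in Q4R libraries and 3.11, 3.36 and 2.04 CPM in Q3R libraries, and was the only one of 22 iron deficiency genes to pass. The list medians of sulfur and iron genes were 0.19 and 0.34. BHLH101 passed whichever library was left out, and none of the 3 sulfur genes passed without Q3R replicate 3.

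Other lists had a single member that rose, a share close to the 1.76% of all genes where the list was long. These were LTI30, a dehydrin, among 16 cold and ABA genes (0.95 in log2), RHL41, a zinc finger transcription factor, among 17 touch, wounding and jasmonate genes (0.89), TEM1, a transcription factor, among 19 ethylene signalling genes (0.79), RVE1, a clock-linked transcription factor, among 21 clock genes (0.98), WES1, which conjugates auxin to amino acids, among 25 auxin and gravity genes (0.95), and PIP2A, a plasma membrane aquaporin, among 47 aquaporins (0.64). Of these, LTI30 alone kept an adjusted p of at most 0.05 whichever library was left out.

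Among the 12 nuclear DEGs with the largest rises, the first was AT5G52940, an uncharacterized DUF295 gene. It had 2.42, 1.44 and 4.94 CPM in Q4R libraries and 0 counts in all 3 Q3R libraries. With 574 counts summed over the Q4R libraries, the gene was at least 202-fold higher in Q4R than a floor of 3 counts over the Q3R group (edgeR, adjusted p = 0.00488). AT3G58150, of the OPA3 family, had 1.99, 5.05 and 3.07 CPM in Q4R libraries, against 0, 0.115 and 0 CPM in Q3R libraries. AT3G54530 (3.299) and AT5G24640 (3.24) encode uncharacterized proteins. AT5G07330, annotated as an NFU1 iron-sulfur cluster protein, rose by 2.97 and AT5G43450, an oxygenase of the 2-oxoglutarate family, by 2.63. AT5G52940, AT3G54530 and AT5G43450 passed whichever library was left out.

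The genes that fell included cell wall loosening proteins. Of 23 expansins tested, which loosen growing walls, 5 fell and none rose, where 1.02% of all genes tested fell. The list median was -0.25. EXPB3 had 143, 130 and 128 CPM in Q4R libraries, against 292, 265 and 390 CPM in Q3R libraries (log2 fold change -1.23, SE 0.15, edgeR, adjusted p = 0.002). The Q4R values lay within a narrow band below every Q3R value. EXPA15 (-1.17), EXPA6 (-1.14), EXPA4 (-0.94) and EXPA1 (-0.75) fell as well, and 3 of the 5 expansins passed without Q3R replicate 3 and 3 without Q4R replicate 2.

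Other wall enzymes moved both ways. Xyloglucan endotransglucosylases cut and rejoin wall polymers, and among 28 tested XTH9 fell by 1.15 and XTH7 by 1.39 in log2, whereas XTH24 (1.03) and XTH30 (0.56) rose. XTH9 passed whichever library was left out, and the other 3 did not. Class III peroxidases use hydrogen peroxide to cross-link or loosen walls, and 5 of 60 rose and 2 fell. Over all genes tested 1.76% rose and 1.02% fell, and the median of the peroxidases was 0.07. PER59 had 48.1, 52.4 and 59.6 CPM in Q4R libraries and 152, 134 and 213 CPM in Q3R libraries (log2 fold change -1.63, SE 0.17, edgeR, adjusted p = 0.000731), and PER15 fell by 1.51. PER71 had 652, 435 and 359 CPM in Q4R libraries and 203, 184 and 145 CPM in Q3R libraries (log2 fold change 1.46, SE 0.21, adjusted p = 0.00415). PER21 (1.02), PER56 (1.24) and PER64, a peroxidase of the Casparian strip (0.75), rose too. No peroxidase that rose passed without Q3R replicate 3, 2 passed without Q4R replicate 1 and 3 without Q3R replicate 2.

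Of 200 cytosolic ribosomal proteins tested, 17 fell and none rose, 11 had a value above 0 and the list median was -0.36. RPP2B, an acidic stalk protein of the large subunit, had 256, 216 and 308 CPM in Q4R libraries against 501, 623 and 488 CPM in Q3R libraries (log2 fold change -1.04, SE 0.15, edgeR, adjusted p = 0.00488). It was the only DEG of the family. The stalk proteins AT2G27720, RPP2D and RPP1C had log2 fold changes of -0.97, -0.91 and -0.78, and RPL9D and RPS21B of -0.82 and -0.69. Summed over the family, Q4R libraries had 60970, 51340 and 72450 CPM and Q3R libraries 70520, 84380 and 84570 CPM, so Q4R replicate 3 exceeded Q3R replicate 1 and the groups overlapped (two-sided exact permutation test, p = 0.2). The number that fell ran from 3, without Q3R replicate 3 or without Q4R replicate 1, to 69 without Q4R replicate 3. Omitting Q3R replicate 1, Q3R replicate 2 or Q4R replicate 2 gave 9, 5 and 6. DESeq2 gave 68, the fit over 12 root libraries 65, no filter 46, the stricter filter 37 and the replicate block 26.

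Core and linker histones, which package DNA and are made mostly in dividing cells, were listed by the wording of the annotation. Of 43 listed genes tested, 4 fell and none rose, 9 had a value above 0 and the median was -0.35. HTB2 fell by 0.75, the histone H3 gene AT5G10400 by 0.79, AT1G07820 by 0.63 and HIS4 by 0.84 in log2. No histone passed without Q3R replicate 3 or without Q4R replicate 1, 1 passed without Q3R replicate 2 or Q4R replicate 2, and 9 passed without Q4R replicate 3 or with DESeq2. A linker histone outside the list, HIS1-3, which is known to be induced by drought, went the other way. It had 49.3, 51.1 and 34.4 CPM in Q4R libraries and 8.40, 20.5 and 10.2 CPM in Q3R libraries (log2 fold change 1.79, SE 0.29, edgeR, adjusted p = 0.00902), with no overlap, and was added after its values were seen. Ribosomal protein and histone genes belong to families of near-identical copies, so the split of reads between single members is uncertain.

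GRP7, an RNA-binding protein with a daily rhythm, had 617, 715 and 803 CPM in Q4R libraries and 1580, 1826 and 1217 CPM in Q3R libraries (log2 fold change -1.105, SE 0.16, edgeR, adjusted p = 0.00427). Every Q4R library was below every Q3R library, and its close relative AT4G39260 fell by 0.91 in log2. GSTF14, a phi class glutathione S-transferase, fell by 3.33, with 6.77, 6.88 and 12.2 CPM in Q4R libraries and 47.4, 53.2 and 161 CPM in Q3R libraries. GSTU20 fell by 1.196, and GSTU9 (1.08), GSTU25 (0.90), GSTZ1 (0.68) and GSTU22 (0.62) rose, out of 45 transferases tested with a median of 0.16. Only 1 transferase rose without Q3R replicate 1, Q3R replicate 3 or Q4R replicate 1, and 5 fell without Q4R replicate 3.

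Of 11 nitrate and ammonium genes tested, 2 fell and none rose, where 1.02% of all genes tested fell. NRT2:1, the high-affinity nitrate transporter, had 35.3, 21.7 and 20.1 CPM in Q4R libraries and 63.5, 40.1 and 117 CPM in Q3R libraries (log2 fold change -1.50, SE 0.33, edgeR, adjusted p = 0.0331), a call that DESeq2 did not make. NIR1, the nitrite reductase, fell by 0.77, and 1 of the 11 had a value above 0 (median -0.46). KIN1, a cold-inducible gene, fell by 1.39, HSP18.2, a small heat shock protein, by 1.37 and FOX1, an oxidase of indole defense compounds, by 1.25. Each was the only member of its list to fall. The lists held 16 cold and ABA genes, 22 heat shock genes and 19 indole defense genes tested, with medians of -0.07, 0.21 and -0.14. The calls of NRT2:1, NIR1, KIN1, HSP18.2 and FOX1 were all lost when Q4R replicate 1 was left out.

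The largest falls among nuclear DEGs were those of AT3G60270, a cupredoxin (-5.80), and AT4G33720, of the CAP family of secreted proteins (-5.41). AT4G33720 had 0.746, 0 and 0.429 CPM in Q4R libraries, against 14.7, 3.73 and 34.1 CPM in Q3R libraries, so the groups were apart but the Q3R values themselves spread widely. AT4G29020, a glycine-rich protein gene, had 9.71, 8.204 and 7.76 CPM in Q4R libraries and 37.0, 31.2 and 41.1 CPM in Q3R libraries (log2 fold change -2.08, SE 0.18, edgeR, adjusted p = 0.00021). AT4G35720, a DUF241 gene, and AT4G29020 passed whichever library was left out. GRP5, a glycine-rich protein gene (-1.82), AT5G37450, a leucine-rich repeat kinase gene (-2.84), AT5G33355, of the defensin-like family (-2.46), UMAMIT36, a transporter gene (-2.25), AT1G15625, annotated as a ubiquitin ligase (-1.88), LSH4 (-1.74) and AT3G42725 (-1.72) also fell. AT5G33355 passed in none of the fits with a library left out, nor with the replicate block or the fit over 12 root libraries, and AT1G15625 passed only without Q4R replicate 3 and not with the replicate block. Of the plastid genome, PSBM, a photosystem II subunit, fell by 3.13 and YCF1.2 by 1.099, neither of them passing without Q3R replicate 2 or Q4R replicate 2, while the summed plastid level overlapped between 157 to 170 CPM in Q4R libraries and 165 to 294 CPM in Q3R libraries.

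Low oxygen genes, often studied in sealed plant vessels, gave few calls. Of 23 core hypoxia genes 1 rose, AT4G27450 (1.26), and the list median was -0.02. ADH1, alcohol dehydrogenase, had 16.0, 11.6 and 9.69 CPM in Q4R libraries and 12.7, 9.89 and 7.30 CPM in Q3R libraries (log2 fold change 0.33, SE 0.26, edgeR, adjusted p = 0.561). PDC1, pyruvate decarboxylase, had a log2 fold change of 0.51 (adjusted p = 0.256). The ethylene receptor gene ETR2 had -0.50 (adjusted p = 0.254) and CYP71A12, of camalexin synthesis, -0.85 (adjusted p = 0.0721), and none of these 4 passed. No member passed among 62 WRKY factors, 15 salicylate and pattern-triggered defense genes, 20 phosphate starvation genes, 13 extensins, 11 ethylene biosynthesis genes or 11 elongation factors.

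Seed storage and oil body transcripts varied between libraries of one tube. Their sum was 43.3, 4.21 and 131 CPM in Q4R libraries, against 32.1, 24.2 and 31.8 CPM in Q3R libraries. CRA1, a cruciferin, had 20.8, 0 and 100 CPM in Q4R libraries and 25.1, 19.1 and 22.7 CPM in Q3R libraries, and did not pass (log2 fold change 0.86, edgeR, adjusted p = 0.742). RBCS1A, the small subunit of the carbon-fixing enzyme of green tissue, had overlapping values, with 83.0, 149 and 53.1 CPM in Q4R libraries and 54.1, 112 and 50.2 CPM in Q3R libraries (adjusted p = 0.597). Whether seed or green material had a part in other results was not tested.

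The other root groups show where Q3R and Q4R lay in the course of the profile. Q1R was fixed after 4 h in the KFT and Q2R after 4 h 14 min, each in a tube of its own. The clinostat group CR was held 4 h 14 min, rotated 4 min, and fixed at the time of Q3. Mitochondrial transcripts summed to 2237 ± 306 CPM in Q1R, 11910 ± 2843 CPM in Q2R, 2736 ± 361 CPM in Q3R, 12730 ± 5034 CPM in Q4R and 3088 ± 239 CPM in CR (SD, n = 3 each), so Q2R and Q4R were high and the other 3 groups low. COX1 followed the same order, with means of 7.77 CPM in Q1R, 61.4 CPM in Q2R, 7.90 CPM in Q3R, 63.4 CPM in Q4R and 8.33 CPM in CR. AT2G21640 averaged 8.64 CPM in Q1R, 21.0 CPM in Q2R, 5.11 CPM in Q3R, 29.8 CPM in Q4R and 8.01 CPM in CR. The levels in these tubes did not run in one direction with time in the KFT.

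Over all nuclear DEGs, the mean log2 level (on CPM plus 1) of another group was set against those of Q3R and Q4R, whose levels had chosen the genes, as a description with no test. Among the DEGs higher at Q4R, 100 lay nearer Q4R than Q3R in Q2R, 40 in Q1R and 20 in CR. Among the 78 that were lower, 49 lay nearer Q4R in Q2R, 27 in Q1R and 1 in CR, and in CR 52 lay beyond the Q3R level. DIN2 stood at 13.4 CPM in Q1R, 56.95 CPM in Q2R, 13.6 CPM in Q3R, 88.9 CPM in Q4R and 39.2 CPM in CR. Its 3 Q2R libraries were far apart, as the plot of the 15 root libraries shows. GRP7 averaged 651 CPM in Q1R, 859 CPM in Q2R, 1541 CPM in Q3R, 712 CPM in Q4R and 1667 CPM in CR, so the pair of tubes fixed together, Q3R and CR, held the high values. The ribosomal protein sum also had its highest means in Q3R (79820 CPM) and CR (76340 CPM). Its means were 58420 CPM in Q1R, 55740 CPM in Q2R and 61590 CPM in Q4R. Single libraries overlapped, with 61320, 88220 and 79490 CPM in CR and up to 72450 CPM in Q4R. EXPB3 had 275 CPM in Q1R and 203 CPM in Q2R, 316 CPM in Q3R, 134 CPM in Q4R and 303 CPM in CR. Its highest means were also in Q3R and CR, but Q1R was near them and Q4R was the lowest.

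**Figure D4:**
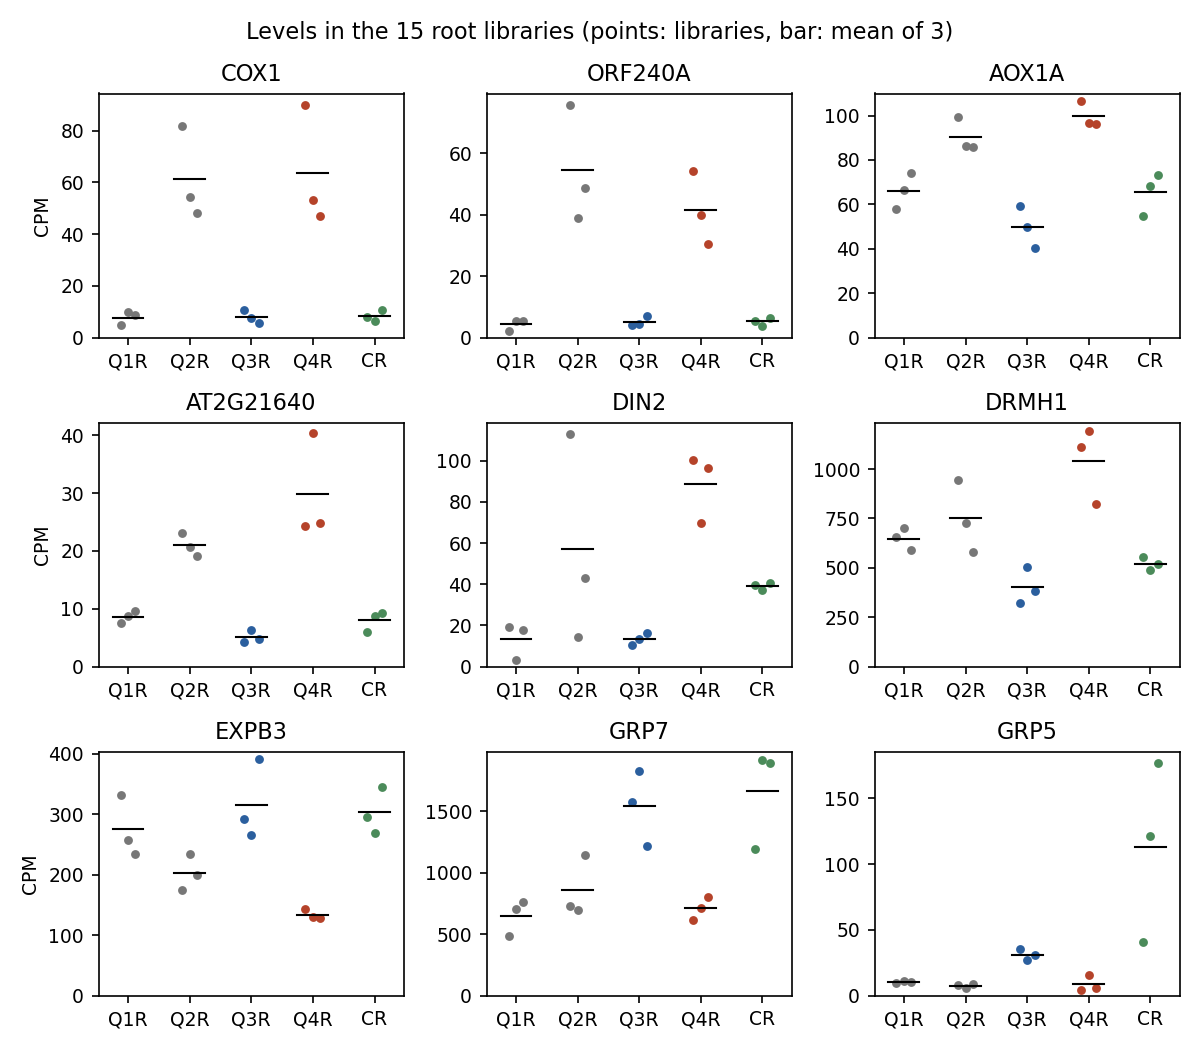
Levels in CPM (vertical axis, from 0) of 9 genes in each library of Q1R, Q2R, Q3R, Q4R and CR, 3 libraries a group, with a bar at the mean. COX1, ORF240A, AOX1A and AT2G21640 were high in Q2R and Q4R, GRP7 was high in Q3R and CR (means of 1541 and 1667 CPM), and EXPB3 was lowest in Q4R.

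Leaves of the same 2 tubes gave no DEG between Q4L and Q3L (0 of 20442 genes tested, 0.0%), with 525 genes at an unadjusted p of at most 0.05 in edgeR and 31 DEGs in DESeq2. The list medians in leaves were 0.04 for the mitochondrial genome, 0.12 for darkness and sugar starvation, -0.20 for the response to mitochondrial dysfunction and 0.07 for ribosomal proteins. Some other lists had larger leaf medians in size, such as core hypoxia (-0.92), phosphate starvation (-0.55) and iron deficiency genes (1.07). Within the darkness and sugar list, DRMH1 and DYL1 had leaf log2 fold changes of 1.37 and 1.09, near their root values. ATG8E (0.39) and AT4G35770 (0.19) changed less in leaves, and DIN2 (-1.43) and DIN10 (-0.31) had negative values. None of these leaf changes passed. The difference between the root and the leaf change was itself tested in 1 model over 12 libraries, and 2 of 22507 genes (0.00889%) passed, AT4G29020 and NDHK. At an unadjusted p of at most 0.05 there were 1712, and DESeq2 called 245. Without Q4L replicate 1 edgeR called 126. Neither gene passed with the replicate block, which takes root and leaf libraries of a number as one set of plants, or without Q4R replicate 2, Q3L replicate 2, Q3L replicate 3, Q4L replicate 2 or Q4L replicate 3, each of which gave 0 calls. Roots and leaves were dissected from the same sets of plants, while the model without the block treats the 12 libraries as independent. For the other genes named above, a difference between root and leaf was not shown.

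**Figure D5:**
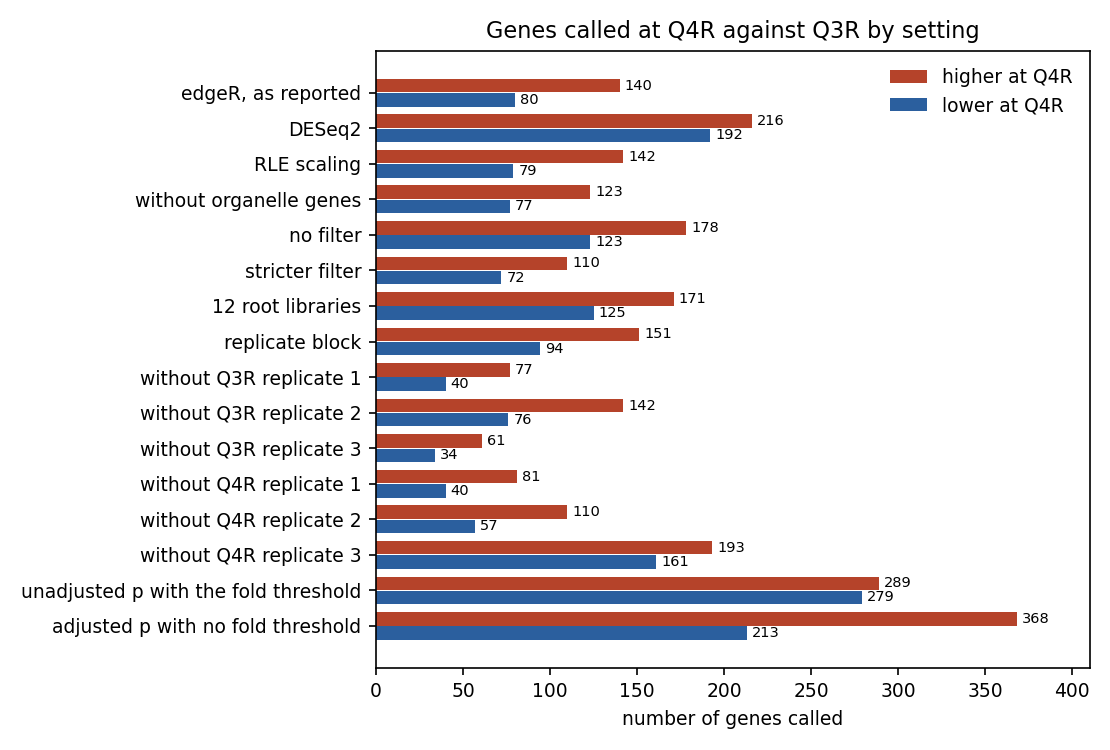
Number of genes called at Q4R against Q3R (horizontal axis, from 0) under each setting, higher at Q4R in red and lower in blue. As reported there were 140 and 80, and leaving out 1 library gave between 95 calls in all (without Q3R replicate 3) and 354 (without Q4R replicate 3).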

How the data were processed

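Poly(A)-selected, strand-marking libraries of pooled root or leaf tissue were sequenced by the authors, who trimmed the reads with cutadapt, aligned them with STAR to TAIR10.51 and counted them per gene with HTSeq. By the paper's account, likely PCR duplicates were removed and only uniquely mapping reads were counted. The deposited tables hold read counts per gene, and columns of the authors' own comparisons (DESeq2 log2 fold changes and p-values), which were not used. Whether counting used strand is not given in the sources used here, so overlapping and antisense genes are uncertain. Tables were joined by gene identifier, and values repeated between tables were identical. No batch or sequencing date is given in the labels.

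Counts of Q4R and Q3R (3 libraries each) were fitted with edgeR 4.0.16 in R 4.3.3, with its expression filter (filterByExpr), TMM scaling and the quasi-likelihood test, and p-values were adjusted by Benjamini-Hochberg over all genes tested. Leaves and the interaction of tissue and time were fitted alike. Root levels are CPM with TMM scaling over 15 root libraries, and leaf levels are CPM scaled separately over the 6 leaf libraries of Q4L and Q3L. The test script was tested on simulated data. Alternatives were DESeq2 1.42.0, RLE scaling, other filters (none, or at least 10 CPM in 3 libraries), omission of organelle genes, a fit over 12 root libraries, a replicate block, other thresholds, and omission of each library. Nuclear genes with at least 50% of their bases covered by 31-base words shared with the mitochondrial genome were found in TAIR10.1. That assembly was used for this and for gene names only.

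The 34 gene lists, the comparison and the tests were chosen with earlier results of these data known. Named genes were up to 12 nuclear DEGs in each direction with the largest change and no overlap between groups, up to 6 members of each list past the adjusted p (smallest p first), and ADH1, PDC1, ETR2, AOX1A, CYP71A12, CRA1 and RBCS1A whatever their values. NDHK, CASP5, HIS1-3 and the genes of the closing observations, fall outside this rule.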

Additional observations from a re-analysis of the deposited data

Results flagged for a closer look

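AT4G29020, a glycine-rich protein gene, passed the test of the difference between the root and the leaf change. Its root minus leaf difference in log2 fold change was -2.34 (SE 0.25, edgeR interaction term, adjusted p = 0.0164). In leaves it had 115, 105 and 111 CPM in Q4L libraries and 111, 76.7 and 86.3 CPM in Q3L libraries, against a root log2 fold change of -2.08. No gene passed this test with the replicate block (0 calls), nor without Q4R replicate 2, Q3L replicate 2, Q3L replicate 3, Q4L replicate 2 or Q4L replicate 3. This call and that of NDHK were both kept with DESeq2, without a filter, and without Q3R replicate 1 or Q4L replicate 1. Only 1 of the 2 was kept without Q3R replicate 2, Q3R replicate 3, Q4R replicate 1, Q4R replicate 3 or Q3L replicate 1.

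NDHK, a plastid-encoded subunit of the NDH complex, differed by -2.16 (edgeR interaction term, adjusted p = 0.0491). Roots had 0.387, 0.617 and 0.537 CPM in Q4R libraries and 1.48, 2.06 and 2.32 CPM in Q3R libraries, a change that did not pass by itself (adjusted p = 0.219), and leaves had 296, 275 and 296 CPM in Q4L libraries and 247, 239 and 244 CPM in Q3L libraries. Root and leaf levels were scaled separately, and the very low root level beside the leaf level was not examined further.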

How the results depend on the processing

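The 220 DEGs of Q4R against Q3R became 408 with DESeq2 (216 higher and 192 lower, against 140 and 80), 568 with an unadjusted p and the fold threshold (289 and 279) and 581 with an adjusted p alone. Leaving out 1 library gave 95 to 354 DEGs. The other settings stayed within 1.5 times, at 182 to 301. Leaf DEGs (0 in edgeR) numbered 31 with DESeq2 and 0 to 5 with 1 library left out, and genes of the interaction (2) numbered 245 with DESeq2, 10 without a filter, 0 with the replicate block and 0 to 126 with 1 library left out. Of the 101 named genes, 95 passed, 38 of them in every alternative that gave a value and 51 lost only where a library was left out. No gene that passed changed direction. CRA1, which did not pass, turned to -0.69 with the replicate block and ran from -1.07 (without Q4R replicate 3) to 1.45 with 1 library left out, RBCS1A ran from -0.0714 (without Q4R replicate 2) to 0.879, and the cause was not tested.

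Same-numbered Q4R and Q3R libraries did not deviate together (correlations of -0.007, -0.004 and 0.044), so the replicate number does not pair them, and the replicate block gave 245 DEGs.

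Each group is 3 libraries of 1 tube, with no other tube at Q4. Folds of genes near 0, such as AT5G52940, are the least certain, and floors cover counting error only. Leaf replicate 1 of Q4 carries a source label naming Q3, while its title and treatment give Q4, by which it was grouped.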

Other observations

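Genes with a product named glycine-rich, chosen after their values were seen, fell in 12 of 51 tested cases and rose in none (median -0.28). Over all genes tested 1.02% fell. GRP9 had 864, 1081 and 536 CPM in Q4R libraries and 2712, 2149 and 1282 CPM in Q3R libraries, and averaged 4909 CPM in CR. All Q4R values were below all Q3R values. AT4G21620 fell by 1.71 and the RNA-binding GR-RBP3 and GRP2B by 1.17 and 1.06 in log2. Some of these proteins bind RNA and others are parts of the wall.

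Some further DEGs were picked after seeing their values, one by one and with no list behind them. ERD5, the proline dehydrogenase of mitochondria, had 339, 393 and 417 CPM in Q4R libraries and 166, 197 and 207 CPM in Q3R libraries (log2 fold change 1.02). MCCA, for leucine breakdown, rose by 1.05 and HGO, for tyrosine breakdown, by 1.04. BXL1, ASD1 and BGAL4, which release sugars from wall polymers, rose by 1.04, 1.17 and 1.17. ALMT1, a malate channel of the root tip, and ATML1, an epidermal transcription factor, fell by 1.57 and 1.30.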
